A study of Mus musculus with 6 samples.

Results

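The piRNA pathway and Tudor domain genes are a list of 33 genes taken by symbol from the 54532 genes of a deposited expression table, and all 33 symbols were found there. The table holds messenger RNA levels from 6 libraries of mouse testis cells described as STRA8+, 3 labelled conditional knockout (cKO) and 3 control. The cKO libraries carry the genotype label knockout, and the control libraries carry the label Cre, the recombinase used to delete a floxed gene in chosen cells. The series title names the splicing factors BCAS2 and hnRNPH1 in meiotic prophase I, while the sample labels do not name the deleted gene, the promoter that drives Cre, the strain, the age, or the number of animals behind a library. Values are FPKM, which are fragments per kilobase of gene length scaled by a size for each library. Nothing says that the libraries came from separate animals, so a p-value here refers to how far these libraries scatter, and that scatter may be technical.

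PIWI-interacting RNAs (piRNAs) are small RNAs of the germ line that guide PIWI proteins to transposon and other transcripts. In the mouse testis they come in successive populations. Fetal prospermatogonia load PIWIL2 and PIWIL4 with transposon piRNAs and methylate transposon promoters, and pachytene spermatocytes load PIWIL1 and PIWIL2 with piRNAs from long intergenic precursors. Tudor domains bind methylated arginines on PIWI proteins and so gather them into germ granules next to mitochondria, where precursors are cut, trimmed and methylated at their ends. By these roles 5 members were placed in the prospermatogonial stage, 13 in both stages and 7 in the pachytene stage and later, and 8 had no piRNA stage assigned.

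The library-wide facts were as follows. The libraries held 14770320 to 15204127 reads in cKO and 14532453 to 16963019 in control, recovered from the FPKM. Genes at 1 FPKM or more numbered 13077 to 13235 in cKO libraries and 16653 to 16877 in control libraries. The deposited scaling divides each library by 1.37 to 1.42 times its own read total in cKO and by 0.691 to 0.774 times its total in control, so deposited cKO levels stand lower against control levels than read shares do. Bcas2 stood at 4.85 ± 0.515 FPKM in cKO and 19.9 ± 0.586 in control (SD, n = 3 each), Hnrnph1 at 140.1 ± 14.0 and 63.8 ± 3.26, and Stra8, the gene named in the cell label, at 133 ± 6.42 and 17.0 ± 5.55. Correlations of log2 levels between libraries were 0.969 to 0.987 within groups and 0.172 to 0.285 between groups, as a description across genes.

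In the cKO libraries Piwil1, Tdrd6, Gtsf1l and Gtsf2, of the pachytene piRNA stage, were low or near 0. Tdrd7 and Rnf17, of the same stage, were lower than in control as deposited but still averaged 21.55 and 28.5 FPKM. Btbd18 was higher, and genes of the other stages went both ways. On the deposited scale, 5 of 13 members of both stages were higher and 7 lower. Of 4 prospermatogonial members tested, Fkbp6 was higher and 3 were lower. With FPKM rescaled to the same sum in every library, 2 of these 4 were higher and 0 lower, against 54.2% and 36.2% of all genes tested. Piwil1, Tdrd6, Gtsf1l and Gtsf2 were 45.6-fold to 15359-fold lower than in control by group means as deposited (20.1-fold to 6871-fold with FPKM rescaled). The largest fold, that of Gtsf1l, rests on 1 read in the cKO group, so its size is poorly known. Gtsf1 and Mael, of both stages, and Tdrd7 were 7.30-fold to 16.6-fold lower (3.19-fold to 7.24-fold with FPKM rescaled). Fkbp6, Mov10l1, Gpat2, Pnldc1 and Piwil2 were 1.26-fold to 3.40-fold higher on the deposited scale and 2.85-fold to 7.65-fold higher with FPKM rescaled. Genes that averaged 1 FPKM or more over the 6 libraries were tested with limma on log2(FPKM + 0.5), which understates the change of low genes. Of the 32 members tested, 12 were higher and 17 lower in cKO at a Benjamini-Hochberg adjusted p of 0.05, against a background of 36.2% higher and 50.4% lower (86.6% in either direction) among all 16791 genes tested. Their median log2 fold change was -0.80, beside -0.41 for all genes tested. Tdrd6, Gtsf1l and Gtsf2 passed the expression filter through the control libraries alone, so they had to differ, and no weight rests on these counts.

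How many members were called in each direction depended on the scaling. With FPKM rescaled to the same sum in every library, 16 members were higher and 12 lower, against 54.2% and 36.2% of all genes (90.5% in either direction). Quantile normalization gave 15 higher and 12 lower (background 52.1% and 36.8%, 88.9% in either direction), and rescaled reads gave 15 and 15 (background 50.6% and 38.9%, 89.4% in either direction). These scalings moved the all-gene median by 1.12, 0.94 and 0.83 on the log2 scale. A group of 12 members was called higher under all 4 scalings (background 36.2%): Piwil2, Mov10, Mov10l1, Tdrkh, Fkbp6, Prmt5, Wdr77, Pnldc1, Gpat2, Snd1, Nanos1 and Btbd18. A group of 10 was called lower under all 4 (background 34.2%): Piwil1, Mael, Tdrd3, Tdrd5, Tdrd6, Tdrd7, Gtsf1, Gtsf1l, Gtsf2 and Pld6. The other 10 members tested did not have the same call under all 4.

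**Figure D1:**
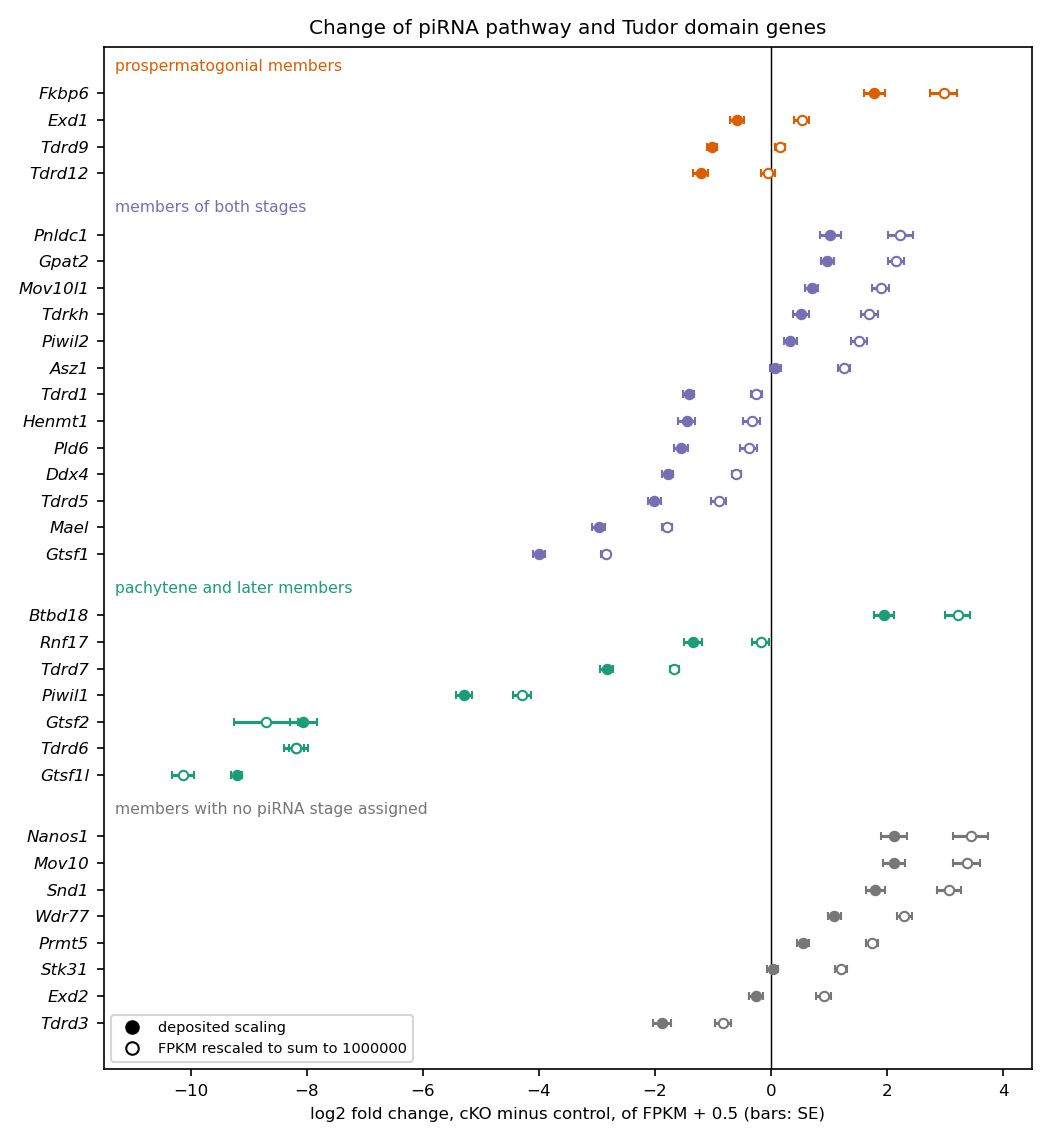
Log2 fold changes (cKO minus control, of FPKM + 0.5) of the 32 members tested, grouped by piRNA stage. Filled points use the deposited scaling, open points use FPKM rescaled to sum to 1000000, bars are standard errors, and the 2 points of Tdrd6 coincide. Without the added 0.5, the control mean of Tdrd6 was 953.9 times the cKO mean as deposited and 419.1 times with FPKM rescaled. Pachytene and later members reach from -9.21 to 1.95 on the deposited scale, and prospermatogonial members from -1.21 to 1.78.

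Stage counts are read against the shares of all genes, which were 36.2% higher and 50.4% lower as deposited and 54.2% and 36.2% with FPKM rescaled. Of the 7 pachytene and later members, 6 were lower and 1, Btbd18, was higher, with a median log2 fold change of -5.30. With FPKM rescaled 5 were lower and 1 higher, with a median of -4.29. Tdrd6, Gtsf1l and Gtsf2 passed the filter through control alone and had to be lower, so no weight rests on these counts and medians. The others changed by -5.30 (Piwil1), -2.83 (Tdrd7), -1.35 (Rnf17) and 1.95 (Btbd18) as deposited. With FPKM rescaled these were -4.29, -1.67, -0.18 and 3.22. Of the 4 prospermatogonial members tested, 3 were lower and 1 higher on the deposited scale, with a median of -0.80, but 0 were lower and 2 higher with FPKM rescaled, with a median of 0.34. Members of both stages divided, with 5 higher and 7 lower of 13 (6 and 6 with FPKM rescaled), shares near those of all genes on the deposited scale. Of the 8 members with no stage assigned, 5 were higher and 1 lower (7 and 1 with FPKM rescaled). Marker genes of the same cells moved as well. All 12 pachytene and diplotene markers were lower, and their summed level was 45.6 to 65.5 FPKM in cKO libraries and 5410 to 6555 in control libraries. The 12 spermatid markers, also all lower, summed to 12.65 to 17.2 FPKM in cKO libraries and 18353 to 21378 in control libraries. In cKO, 7 of the 12 pachytene and diplotene markers and 10 of the 12 spermatid markers averaged below 1 FPKM, so these passed the filter through control alone and had to be lower. Control libraries labelled STRA8+ held transcripts of germ cells past the stage that STRA8 marks. None of these markers was at 0 in all 3 libraries of a group. Of 10 differentiating spermatogonia markers, 9 were higher and 1 lower (607.9 to 714.6 FPKM in cKO, 450.2 to 543.9 in control). The lower one, Dmrtb1, had 26.0 ± 2.88 FPKM in cKO and 388 ± 53.8 in control, most of the control sum. The sums therefore understate the rise of the other 9. The part of all these markers in the members' changes was not tested, and in bulk libraries fewer cells of a type and less RNA per cell cannot be told apart.

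Promoter sequences from RefSeq (GRCm38.p6) were found for 28 of the members, as 38 promoters, and not for Tdrd6, Pnldc1, Rnf17, Exd2 and Piwil2. They are shown for 4 members as examples: Piwil1, Gtsf1l and Tdrd7, which were lower in cKO, and Gpat2, which was higher. All 4 hold letters searched for here, and they do not stand for all members of either direction. A search on both strands looked for the core letters bound by MYB proteins, CNGTTG, since MYBL1 drives transcription of pachytene piRNA genes, and for letters reported for STRA8, CNCCTCAG. Capitals mark these letters on either strand, and all sequences run 5′ to 3′ along the gene's strand within the 250 bases before the RefSeq start. The Piwil1 sequence covers bases 250 to 68 before its start, of which the last 5 lie in an annotated exon, and the Tdrd7 sequence covers bases 250 to 2.
Piwil1 (chr5:128735996-128736178, + strand): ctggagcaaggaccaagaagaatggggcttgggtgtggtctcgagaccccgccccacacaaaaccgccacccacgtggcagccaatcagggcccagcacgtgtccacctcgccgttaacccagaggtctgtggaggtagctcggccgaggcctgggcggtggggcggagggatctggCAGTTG
Gtsf1l (chr2:163089602-163089851, - strand): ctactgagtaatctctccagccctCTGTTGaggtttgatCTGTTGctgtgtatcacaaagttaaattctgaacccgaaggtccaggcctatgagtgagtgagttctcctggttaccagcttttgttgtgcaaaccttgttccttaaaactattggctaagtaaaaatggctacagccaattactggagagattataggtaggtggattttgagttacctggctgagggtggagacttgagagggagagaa
Tdrd7 (chr4:45965085-45965333, + strand): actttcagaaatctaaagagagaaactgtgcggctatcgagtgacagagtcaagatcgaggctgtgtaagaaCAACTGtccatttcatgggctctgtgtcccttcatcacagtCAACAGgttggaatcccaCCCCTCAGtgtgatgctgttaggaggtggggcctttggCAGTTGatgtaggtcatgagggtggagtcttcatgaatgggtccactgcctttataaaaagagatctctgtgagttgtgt
Gpat2 (chr2:127424949-127425198, + strand): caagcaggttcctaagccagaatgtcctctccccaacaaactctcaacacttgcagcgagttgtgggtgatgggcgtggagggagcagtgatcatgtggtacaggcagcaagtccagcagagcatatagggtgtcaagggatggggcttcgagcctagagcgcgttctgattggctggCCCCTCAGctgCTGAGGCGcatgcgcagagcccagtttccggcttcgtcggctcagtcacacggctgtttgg
The Piwil1 sequence ends in the MYB core, whose first base lies 73 bases before that start. The Gtsf1l sequence holds the core at 226 and 211 bases before its start. The Tdrd7 sequence holds it at 178, 137 and 81 bases, with the STRA8 letters at 119, and the Gpat2 sequence holds the STRA8 letters at 72 and 61. The RefSeq starts used for Piwil1 and Gtsf1l lie 33722 and 1746 bases from the gene ends in the deposited table. Which starts these cells use was not tested. The MYB core was in 12 of the 38 member promoters (31.6%) and in 29.3% of all 32851 promoters. By gene it was in 9 of 28 members (32.1%) and in 32.3% of all genes. Of these 9, Fkbp6, Wdr77 and Piwil4 were higher in cKO on the deposited scale. Gtsf1l, Piwil1, Pld6, Tdrd12, Tdrd5 and Tdrd7 were lower. The STRA8 letters were in 4 member promoters (10.5%, those of Fkbp6, Gpat2, Stk31 and Tdrd7) and in 6.42% of all. Such matches describe letters and are not binding sites.

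The PIWI proteins carry the piRNA and, in PIWIL1 and PIWIL2, cut the target. Piwil1 had 2.31, 3.30 and 3.20 FPKM in cKO libraries, against 124.8, 129.4 and 147.7 in control libraries. Every cKO library was far below every control library, and the change was -5.30 ± 0.14 (log2, SE, limma adjusted p 1.0e-08). Piwil2 had 61.0, 63.75 and 65.4 FPKM in cKO libraries, against 43.4, 54.5 and 53.3 in control libraries. The groups did not overlap, but the rise was small on the deposited scale (0.33 ± 0.11, limma adjusted p 0.018), where adjusted p was 0.060 without cKO replicate 3. The rise was 1.52 with FPKM rescaled (limma adjusted p 2.6e-05), 1.755 after quantile normalization (4.6e-06) and 1.25 with rescaled reads (4.9e-05). Piwil4, which works in fetal prospermatogonia, had 1.30, 1.40 and 1.42 FPKM in cKO libraries, against 0.278, 0.297 and 0.286 in control libraries. It was below the expression filter and so outside the count of members tested. Without the filter its change was 1.25 ± 0.15 (limma adjusted p 0.00038 over 37309 genes), from 462 reads in the cKO group and 55 in control.

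The balance among PIWI transcripts does not depend on the scaling of libraries. Piwil1 supplied 3.58, 4.82 and 4.57% of the summed PIWI FPKM in cKO libraries, against 74.1, 70.25 and 73.4% in control libraries. Piwil2 supplied 94.4, 93.1 and 93.4% in cKO libraries, against 25.7, 29.6 and 26.5% in control libraries. Piwil2 was thus the main PIWI transcript in each cKO library and Piwil1 in each control library. The log2 ratio of Piwil1 to Piwil2 was -4.45 ± 0.24 in cKO and 1.41 ± 0.15 in control (SD, n = 3 each), with a two-sided exact permutation p of 0.1, the smallest that 3 against 3 allows. Among 22046 protein-coding genes ranked by FPKM within a library, Piwil1 had a median rank of 8333 in cKO and 572 in control. Piwil2 had a median rank of 324 in cKO and 1612 in control.

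**Figure D2:**
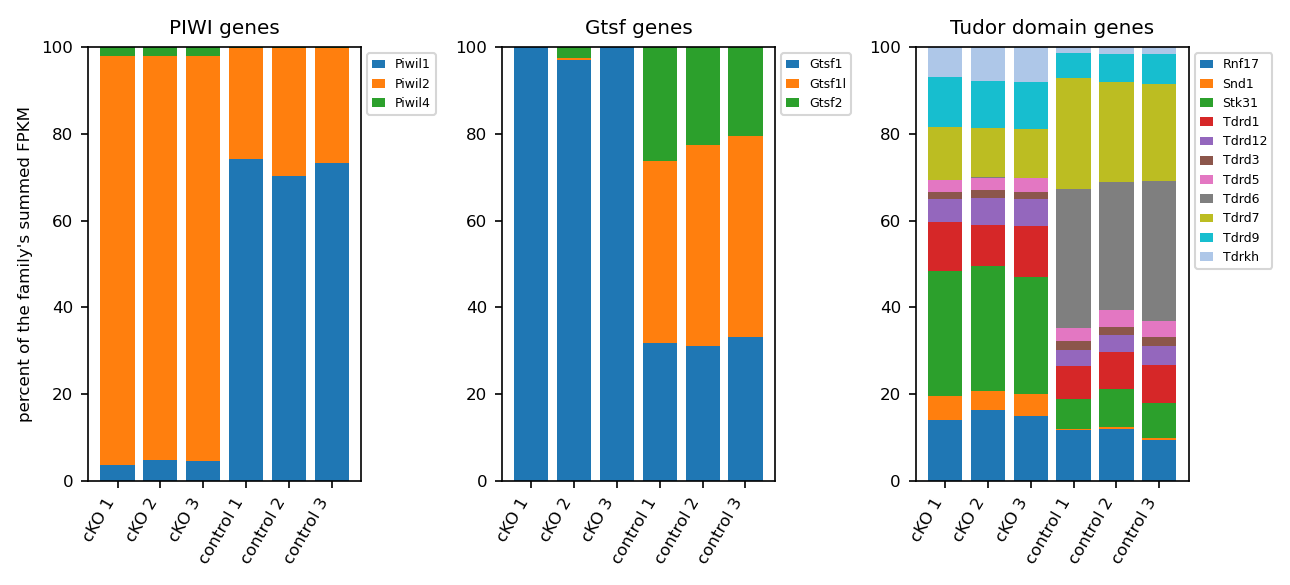
Share of each gene in the summed FPKM of its family in each library (percent), for PIWI, Gtsf and Tudor domain genes, with the cKO libraries to the left of the control libraries. Piwil2 takes 93.1 to 94.4% of the PIWI bars in cKO and 25.7 to 29.6% in control, and Tdrd6 takes 0.0766 to 0.157% of the Tudor bars in cKO and 29.4 to 32.2% in control.

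The gametocyte-specific factors are small zinc finger proteins that bind PIWI proteins and speed target cleavage. Gtsf1 had 12.9, 12.8 and 14.2 FPKM in cKO libraries, against 243.2, 203.7 and 213.8 in control libraries, a change of -4.00 ± 0.10 (log2, SE, limma adjusted p 7.5e-09). Gtsf1l had 0, 1 and 0 reads in cKO libraries, against 2638, 3288 and 3031 in control libraries, or 0, 0.0601 and 0 against 319.7, 304.5 and 299.3 FPKM. With 1 read in the cKO group, the control level was 15793 times higher on the deposited scale, and its exact 95% interval, for counting error alone, ran between 2834 and 623857. Gtsf2 had 0, 5 and 0 reads in cKO libraries, against 1474, 1434 and 1206 in control libraries, which gives a control level 1451 times higher (621.2 to 4470). All reads of both genes in the cKO group came from cKO replicate 2. Gtsf1 and Gtsf2 are neighbours on the minus strand of chromosome 15 (mm10, chr15:103402405-103430470 and chr15:103438957-103448469). Gtsf1 made up 100, 97.0 and 100% of the summed FPKM of the 3 genes in cKO libraries, against 31.9, 31.0 and 33.1% in control libraries.

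**Figure D3:**
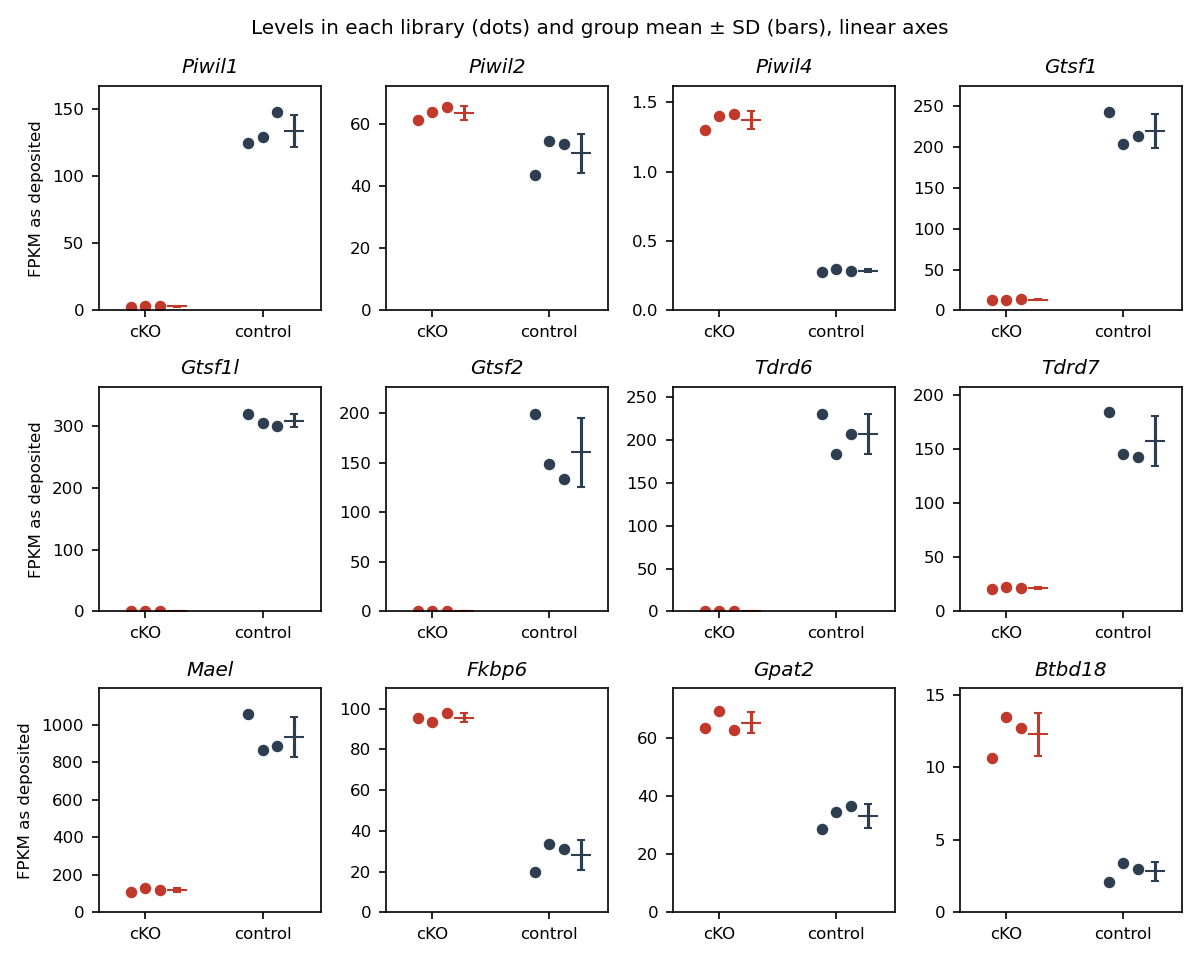
FPKM as deposited of 12 members in each library (dots) with the group mean and SD (bars), on linear axes from 0, with the cKO libraries to the left of the control libraries. In every panel the groups do not overlap: Piwil1, the Gtsf genes, Tdrd6, Tdrd7 and Mael are lower in cKO, and Piwil2, Piwil4, Fkbp6, Gpat2 and Btbd18 are higher. Of all genes tested, 36.9% were higher and 51.1% lower without overlap. Stk31 and Asz1, whose groups overlap, are not among the members shown.

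Of the 11 Tudor domain genes, 8 were lower and 2 higher in cKO on the deposited scale, but 5 were lower and 3 higher with FPKM rescaled, against 50.4% lower and 36.2% higher of all genes as deposited and 36.2% lower and 54.2% higher with FPKM rescaled. Tdrd6, a scaffold of the chromatoid body in spermatocytes and round spermatids, had 0.131, 0.315 and 0.205 FPKM in cKO libraries, against 231, 184 and 207 in control libraries. These are 20, 45 and 30 reads against 16354, 17053 and 17971, and the control level was 953.6 times higher (exact 95% interval 779.9 to 1179). All 3 cKO libraries were near 0 and every control library was far above them. Tdrd7, which acts in the remodelling of germ granules, had 20.6, 22.6 and 21.45 FPKM in cKO libraries, against 184, 145 and 143 in control libraries. It was lower in every cKO library than in any control library (-2.83 ± 0.12, limma adjusted p 1.3e-07), and its median rank was 1832 in cKO and 488 in control. Tdrd5, needed for retrotransposon silencing and for chromatoid body assembly, had 4.88, 5.83 and 6.20 FPKM in cKO libraries, against 22.4, 25.4 and 24.7 in control libraries. Its change was -2.01 ± 0.12 (limma adjusted p 1.0e-06) as deposited and -0.90 with FPKM rescaled. Part of the Tdrd5 locus overlaps an antisense gene, 4930518J20Rik, with 17 reads in the cKO group and 3725 in control. Whether counting used strand is not given, so reads of the pair cannot be told apart.

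Other Tudor domain genes moved less or in a direction set by the scaling. Tdrd1, a partner of PIWIL2 in the intermitochondrial cement, had 20.35 ± 1.88 FPKM in cKO and 55.0 ± 1.33 in control (SD, n = 3 each), a change of -1.42 that was -0.25 with FPKM rescaled and did not pass the test after quantile normalization (-0.24, limma adjusted p 0.055). The helicase gene Tdrd9, which works with PIWIL4, had 19.8, 21.65 and 21.1 FPKM in cKO libraries, against 43.05, 40.4 and 44.5 in control libraries. Its change was -1.02 ± 0.09 on the deposited scale (limma adjusted p 1.0e-05) but 0.16 with FPKM rescaled (limma adjusted p 0.099) and 0.11 after quantile normalization, so its direction depends on the scaling. Tdrd12 had 11.1 ± 1.65 FPKM in cKO and 26.2 ± 1.88 in control, a change of -1.21 that was -0.06 with FPKM rescaled (limma adjusted p 0.68). Rnf17, also called Tdrd4, had 28.5 ± 4.45 FPKM in cKO and 73.4 ± 12.2 in control, a change of -1.35 that was -0.18 with FPKM rescaled (limma adjusted p 0.28) and 0.005 after quantile normalization. Their median ranks were 2089 in cKO and 1553 in control for Tdrd1, 1869 and 2035 for Tdrd9, 3803 and 3018 for Tdrd12, and 1165 and 1123 for Rnf17. Tdrd3, a Tudor protein linked to topoisomerase 3 beta rather than to piRNAs, had 3.23 ± 0.534 FPKM in cKO and 13.2 ± 1.77 in control, a change of -1.88.

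Tdrkh and Snd1 were the Tudor domain genes that rose. Tdrkh, which tethers PIWI proteins to mitochondria, had 11.8, 15.8 and 15.5 FPKM in cKO libraries, against 9.21, 9.605 and 10.8 in control libraries, a change of 0.51 ± 0.14 (limma adjusted p 0.0078). The groups did not overlap, and the lowest cKO library lay just above the highest control library. Tdrkh overlaps Oaz3, a spermatid gene on the other strand with 90 reads in the cKO group and 41946 in control. Snd1, a Tudor staphylococcal nuclease protein found in many cell types, had 9.78, 9.03 and 9.54 FPKM in cKO libraries, against 1.77, 2.72 and 2.68 in control libraries (1.80 ± 0.16, limma adjusted p 1.3e-05). Every cKO library was above every control library. Stk31, a germ cell protein with a Tudor domain and a kinase-like domain, had 52.9 ± 4.40 FPKM in cKO and 51.85 ± 2.76 in control. The groups overlapped (0.03, limma adjusted p 0.79), and the change was 1.21 with FPKM rescaled. Stk31 made up 27.1 to 28.7% of summed Tudor FPKM in cKO libraries and 6.80 to 8.72% in control libraries, while Tdrd6 made up 0.0766 to 0.157% in cKO libraries and 29.4 to 32.2% in control libraries.

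Among the genes of precursor handling, Mael and Ddx4 fell and Mov10l1 and Mov10 rose, although Ddx4 did not pass the test after quantile normalization (-0.11, limma adjusted p 0.17). Mael, which acts in transposon silencing and pachytene piRNA production, had 108, 129 and 119 FPKM in cKO libraries, against 1061, 864 and 889 in control libraries. Its change was -2.97 ± 0.12 (limma adjusted p 1.0e-07), with no overlap between the groups. Mael had the highest median rank of the 33 members in cKO, at 109, and also in control, at 32. Ddx4, the VASA helicase of germ granules, had 97.55 ± 6.25 FPKM in cKO and 338 ± 34.2 in control, a change of -1.78 that was -0.60 with FPKM rescaled. Its median rank was 148 in cKO and 138 in control. Mov10l1, the helicase that feeds precursors into piRNA processing, had 55.7, 61.3 and 56.0 FPKM in cKO libraries, against 29.9, 38.2 and 38.4 in control libraries (0.70 ± 0.12, limma adjusted p 0.00062). The groups did not overlap, and its median rank was 383 in cKO and 2189 in control. Mov10, the broadly expressed paralog, had 17.5, 16.3 and 19.3 FPKM in cKO libraries, against 2.70, 3.72 and 4.91 in control libraries (2.12 ± 0.19, limma adjusted p 1.4e-05), and was higher in every cKO library.

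The genes of mitochondrial processing and 3′ end formation divided, with 3 higher, 3 lower and 2 not called of 8 (6 higher and 1 lower with FPKM rescaled). Of all genes, 36.2% were higher and 50.4% lower as deposited, and 54.2% and 36.2% with FPKM rescaled, so the deposited count of rises is near the background. Gpat2, an outer mitochondrial membrane protein that acts in piRNA production, had 63.7, 69.6 and 62.9 FPKM in cKO libraries, against 28.7, 34.55 and 36.85 in control libraries. All 3 cKO libraries were above the control libraries, by 0.97 ± 0.11 (limma adjusted p 6.8e-05). Its promoter, shown above, holds the STRA8 letters. Those of Fkbp6 (higher as deposited), Tdrd7 (lower) and Stk31 (not called) hold them too, and a link to these levels was not tested. Pnldc1, the nuclease that trims piRNA 3′ ends, had 9.73, 12.9 and 14.0 FPKM in cKO libraries, against 4.68, 6.725 and 5.77 in control libraries (1.03 ± 0.17, limma adjusted p 0.00067), again without overlap. Fkbp6, a co-chaperone needed for transposon silencing and also found in meiotic cells, had 95.6, 93.2 and 98.0 FPKM in cKO libraries, against 19.7, 33.6 and 31.2 in control libraries. The cKO libraries lay close together and well above control, by 1.78 ± 0.19 (limma adjusted p 3.7e-05), and its median rank was 156 in cKO and 2599 in control.

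Lower on the deposited scale were Pld6, Henmt1 and Exd1. Pld6, a mitochondrial nuclease that forms piRNA 5′ ends, had 15.55 ± 0.696 FPKM in cKO and 46.7 ± 6.95 in control (SD, n = 3 each), a change of -1.55 (-0.39 with FPKM rescaled). Henmt1, which methylates piRNA 3′ ends, had 6.09 ± 1.13 FPKM in cKO and 17.4 ± 1.76 in control, a change of -1.45 that was -0.33 with FPKM rescaled (limma adjusted p 0.067). Exd1, a partner of TDRD12 in transposon piRNA production, had 3.56, 4.09 and 4.44 FPKM in cKO libraries, against 6.50, 5.77 and 6.49 in control libraries. Its change was -0.58 ± 0.12 (limma adjusted p 0.0023) on the deposited scale and 0.53 with FPKM rescaled (limma adjusted p 0.0059), so the scaling turned its call round. Exd2, an exonuclease of DNA repair and mitochondria, had 7.37, 9.44 and 7.44 FPKM in cKO libraries, against 9.45, 9.69 and 9.83 in control libraries. The highest cKO library lay just under the lowest control library (-0.25 ± 0.12, limma adjusted p 0.080), the change was 0.91 with FPKM rescaled, and without cKO replicate 2 it was -0.36 (limma adjusted p 0.022). Asz1, a mitochondrial scaffold of the intermitochondrial cement, had 20.35 ± 1.69 FPKM in cKO and 19.25 ± 1.38 in control, with overlapping groups (0.08, limma adjusted p 0.49) and a change of 1.26 with FPKM rescaled.

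Prmt5 and Wdr77 encode the enzyme and cofactor that methylate the arginines read by Tudor domains, and both rose. Prmt5 had 18.4, 21.9 and 21.8 FPKM in cKO libraries, against 13.6, 14.5 and 13.6 in control libraries (0.56 ± 0.10, limma adjusted p 0.00099). Wdr77 had 11.1, 13.9 and 13.3 FPKM in cKO libraries, against 5.535, 5.94 and 5.67 in control libraries (1.09 ± 0.11, limma adjusted p 3.7e-05). The groups did not overlap for either gene. Wdr77 overlaps Atp5f1 on the other strand, with 12386 reads in the cKO group and 4796 in control.

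Btbd18, a nuclear protein needed for transcription elongation at pachytene piRNA loci, was the pachytene stage member that rose. It had 10.6, 13.5 and 12.7 FPKM in cKO libraries, against 2.095, 3.37 and 3.02 in control libraries (1.95 ± 0.17, limma adjusted p 1.4e-05). Every cKO library stood above every control library, and its median rank was 3564 in cKO and 9250 in control. Nanos1, an RNA-binding protein of the Nanos family, had 8.52, 8.72 and 10.2 FPKM in cKO libraries, against 1.09, 2.56 and 1.72 in control libraries (2.12 ± 0.23, limma adjusted p 4.7e-05). It too was higher in every cKO library. In all, 12 of the 32 members tested were higher in every cKO library than in any control library and 18 were lower, against 36.9% and 51.1% of all genes tested, and 2 overlapped.

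**Figure D4:**
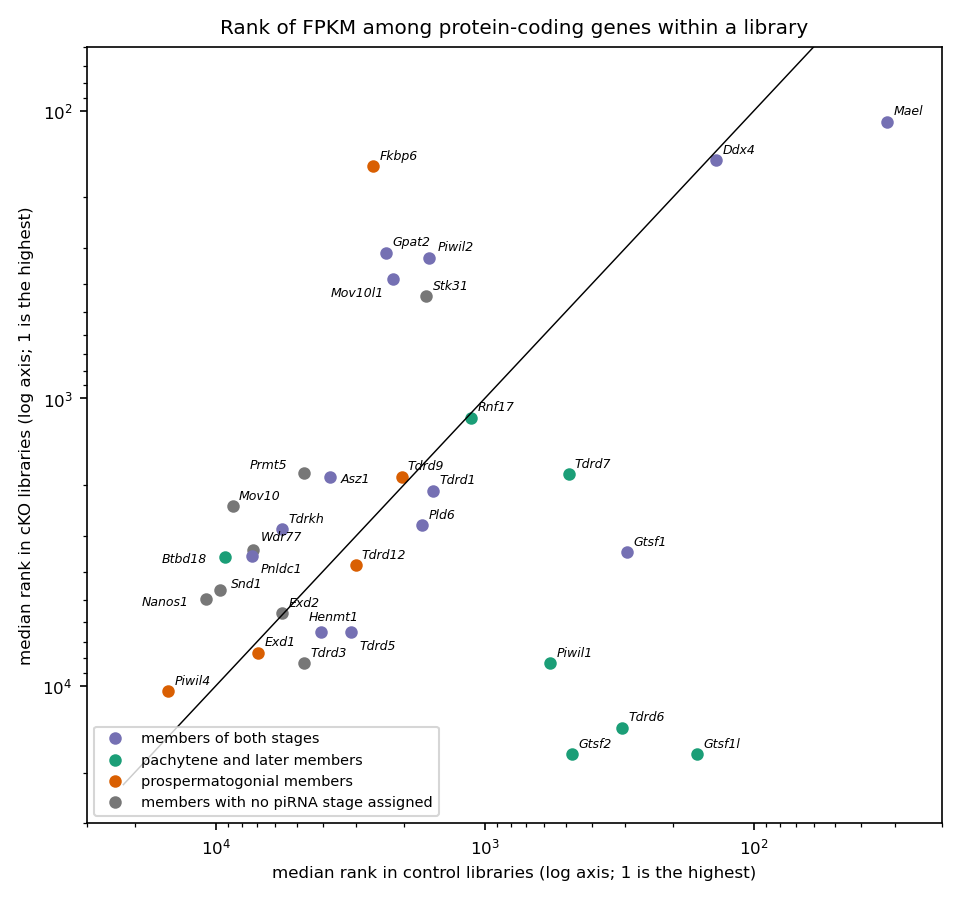
Median rank by FPKM among 22046 protein-coding genes within a library (1 is the highest), in cKO (vertical, log axis) against control (horizontal, log axis) for the 33 members, coloured by piRNA stage. The line marks equal ranks, points above it rank higher in cKO, and Fkbp6 (156 in cKO, 2599 in control) and Gtsf1l (17201 and 163) lie far from it on opposite sides.

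The members together took 0.390, 0.423 and 0.422% of the reads in cKO libraries, against 0.633, 0.633 and 0.631% in control libraries. The PIWI genes took 0.0484 to 0.0514% in cKO libraries and 0.0535 to 0.0696% in control libraries. The Gtsf genes took 0.00248 to 0.00276% in cKO libraries and 0.0481 to 0.0516% in control libraries. Neither family's read shares overlapped between the groups, but as shares of summed FPKM the PIWI genes did, with 0.0315 to 0.0342% in cKO libraries and 0.0334 to 0.0435% in control libraries.

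The other genes of the pathway were 22 genes outside the list, of which 21 were tested. On the deposited scale 6 were higher and 10 lower in cKO, with a median log2 fold change of -0.20, against the same background of 36.2% and 50.4%. With FPKM rescaled 12 were higher and 6 lower, against 54.2% and 36.2% of all genes. Mybl1, the transcription factor of pachytene piRNA genes, had 11.5 ± 1.65 FPKM in cKO and 26.4 ± 1.34 in control (SD, n = 3 each). Its change was -1.18 (limma adjusted p 2.8e-05) on the deposited scale and -0.03 with FPKM rescaled (limma adjusted p 0.84). Tcfl5, which acts with MYBL1, had 19.9 ± 2.21 FPKM in cKO and 178 ± 14.3 in control, a change of -3.14 (limma adjusted p 5.3e-08; -1.98 with FPKM rescaled). Kif17, a kinesin of the chromatoid body, had 1.92 ± 0.0842 FPKM in cKO and 108 ± 5.44 in control. Ddx25, a helicase of spermatids, had 7.93 ± 0.777 FPKM in cKO and 132 ± 18.0 in control. Among nuclear silencing genes, Dnmt3l, the cofactor of transposon methylation, had 0.293 ± 0.0401 FPKM in cKO and 7.51 ± 1.84 in control, while the methyltransferase gene Dnmt3a had 5.48 ± 0.757 FPKM in cKO and 0.937 ± 0.179 in control. Setdb1, a histone H3 lysine methyltransferase, had 33.9 ± 0.430 FPKM in cKO and 16.6 ± 1.32 in control. These genes were named for their small p, and Dnmt3l and Dnmt3a passed the expression filter through 1 group alone, so no weight rests on their passing the test. Their directions were the same under all 4 scalings. Hsp90aa1, a chaperone used in PIWI loading, had 393 ± 31.2 FPKM in cKO and 1081 ± 105.5 in control (-1.46, but 0.50 after quantile normalization), and the methylosome partner Coprs had 8.85 ± 0.576 FPKM in cKO and 19.05 ± 0.708 in control (-1.07, but 0.08 with FPKM rescaled).

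Markers of somatic testis cells also differed between the groups, for several lists in a way set by the scaling. All 10 Sertoli cell markers were higher in cKO under all 4 scalings, with a summed level of 491.9 to 877.9 FPKM in cKO libraries and 106.8 to 243.3 in control libraries, although 2 of them averaged below 1 FPKM in control and passed the filter through cKO alone. Of 8 macrophage markers, 4 were higher as deposited (94.2 to 367 FPKM in cKO, 55.2 to 92.1 in control), and 8, 8 and 7 with FPKM rescaled, quantile normalization and rescaled reads. The highest cKO sum came from replicate 1, where Lyz2 had 135.8 FPKM and Ccl8 93.1. Lyz2 had 38.0 and 47.2 and Ccl8 10.2 and 19.6 in cKO replicates 2 and 3. The deposited levels of Lyz2, C1qb, Adgre1 and Cd14 overlapped between the groups. Of 6 Leydig cell markers tested, 1 was higher and 4 lower as deposited (15.6 to 68.8 FPKM in cKO, 89.2 to 148 in control), and 1, 2 and 2 were lower under the other scalings. Of 5 peritubular markers tested, 0 passed as deposited (22.85 to 41.0 FPKM in cKO, 14.45 to 33.4 in control), and 4, 4 and 3 were higher under the others. Of 10 leptotene and zygotene markers, 4 were higher and 3 lower as deposited (664.9 to 914.2 FPKM in cKO, 937.8 to 1057 in control), but 9 were higher and 1 lower under each of the other 3 scalings. These counts stand beside 36.2% higher and 50.4% lower of all genes as deposited, and 50.6 to 54.2% higher under the others. Mov10, Snd1, Prmt5 and Wdr77 are also expressed in somatic cells. The part of these shifts in the members' changes was not tested.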

How the data were processed

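Libraries were grouped by their titles. The authors deposited FPKM for 54532 genes; the submitters' processing notes name HISAT2 2.0.5 and mm10, and neither the counter nor its use of strand is stated in the sources used here. In the labels the extraction text mentions retinas, and the other fields name testis and germ cells. FPKM times gene length gave whole reads for all nonzero values within 0.01 read, and limma voom on these reads called 14451 genes. Library depth was 14532453 to 16963019 reads. Replicates of a group differed beyond sampling noise (chi-square per gene 8.95 to 19.6).

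limma 3.58.1 in R 4.3.3 compared cKO with control on log2(FPKM + 0.5) for genes averaging 1 FPKM or more, with a mean-variance trend and Benjamini-Hochberg adjustment, at 0.05. Ratios, ranks and shares were computed in Python 3.11.15 with scipy 1.17.1 (exact 95% intervals cover counting error only). Alternatives were other pseudocounts and filters, 3 scalings, no trend, voom, the replicate block and leaving out each library. The model was tested on simulated data. Named genes with values in every library were the PIWI and Gtsf genes, members with an absolute log2 change of at least 2, members that rose, and members whose direction turned with FPKM rescaled; Tdrd7, Tdrd5 and Mael fall under the second rule. Of other pathway genes, Mybl1 and the 8 with the smallest p, which include Tcfl5, were named. The members and lists were chosen with earlier results of these data known.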

Additional observations from a re-analysis of the deposited data

How the results depend on the processing

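On the deposited scale, other pseudocounts, no filter, no trend, voom, the replicate block and the filter at 5 FPKM kept the call of all 32 members tested. The filter at 5 FPKM lowered the count of called genes to 8547, 3227 higher and 5320 lower, since fewer genes were tested. Leaving out each library gave 28 to 30 members called; Piwil2 was no longer called without cKO replicate 3, and Exd2 became called without cKO replicate 2. Stk31, not called, lay between -0.035 (without cKO replicate 2) and 0.083 (without cKO replicate 1), and at -0.011 without control replicate 1.

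The scaling decided more. With FPKM rescaled, 3 members turned round, Tdrd9 to 0.155, Exd1 to 0.534 and Exd2 to 0.906. With quantile normalization these were 0.112, 0.071 and 0.395, and Rnf17 was 0.005. With rescaled reads Exd1 was 0.258 and Exd2 0.621. Hsp90aa1 became 0.50 with quantile normalization and Coprs 0.081 with FPKM rescaled. Other pathway genes called higher numbered 12, 13 and 12 of 21 under FPKM rescaled, quantile and rescaled reads, against 54.2, 52.1 and 50.6% of all genes. Under FPKM rescaled 6 were lower, against 36.2% of all genes. Over 16 alternatives, limma adjusted p ranged from 4.6e-06 to 0.060 for Piwil2, 0.0003 to 0.23 for Exd2, 0.0013 to 0.57 for Exd1, 1.5e-07 to 0.055 for Tdrd1, 1.3e-06 to 0.21 for Tdrd9, 6.2e-06 to 0.68 for Tdrd12, 7.3e-06 to 0.98 for Rnf17, 7.5e-06 to 0.067 for Henmt1, 3.1e-08 to 0.17 for Ddx4 and 3.5e-06 to 0.84 for Mybl1. The scalings differ in how the library size is set, and which is nearer to RNA per cell was not tested.

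The replicate numbers showed no sign of pairing: same-numbered deviations correlated at -0.122, -0.053 and -0.040. With 3 libraries per group, such correlations cannot show that no pairing existed. With the replicate block 14294 genes were called, 5930 higher and 8364 lower, with 29 members (12 higher and 17 lower), and it changed no member's call. With a 100-base promoter window the MYB core was in 23.7% of member promoters and 13.3% of all promoters, and the STRA8 letters in 7.89% and 2.64%. Low reads limit Gtsf1l, Gtsf2 and Piwil4. Protein sequences were not used here.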
